A study of Mus musculus with 8 samples.

Results

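Open regions at the ends of protein-coding genes were described in activated mouse CD4 T cells with and without the DNA demethylases Tet1 and Tet3. A region was a stretch covered by at least 1 ATAC-seq peak after the 8 deposited peak lists were merged at overlaps of 1 bp or more, and it counted as a gene-end region when its midpoint lay within 1 kb of either end of a RefSeq gene body (GRCm38). This rule took 18988 of 175276 regions (10.8%). ATAC-seq reads open chromatin through a transposase that cuts DNA where it is not covered by nucleosomes. Naive CD4 T cells sorted from spleen were stimulated for 48 h through CD3 and CD28 with 20 ng/mL TGF-β, which drives them towards induced regulatory T cells, and 90000 cells were tagmented per sample. The 4 groups, with 2 libraries each, were control and Tet1/3 conditional double knockout (cDKO) cells, each with no added IL-2 or with 100 U of IL-2. TGF-β and the stimulation were common to all groups, so no group shows unstimulated cells. The labels call the replicates biological but name no animals, and they do not say which Cre driver or which deleted exons define the knockout. The p-values therefore reflect the scatter of these particular libraries.

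The start of a gene is usually its most accessible point, because transcription factors, RNA polymerase and remodelling enzymes keep a nucleosome-poor gap at the promoter. Many mammalian promoters are CpG islands, stretches rich in the CpG dinucleotide that mostly stay unmethylated, whereas CpG-poor promoters depend more on factors particular to a cell type. TET enzymes oxidise methylated cytosine and so lead to its removal, and IL-2 signals through STAT5 in regulatory T cells. The 3′ end, where transcripts are cleaved and polyadenylated, has no such general opening.

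Promoter sequences of 8 genes are shown because gene starts shared by all lists and those with no region differed widely in CpG content. Each holds the 250 bases upstream of the start, 5′ to 3′ on the gene's strand, every CpG in capitals (RefSeq, GRCm38.p6). Map9 (chr3:82357937-82358186, plus strand) and B3gntl1 (chr11:121673152-121673401, minus) had 2 of the strongest start regions of all libraries. Ddx4 (chr13:112652311-112652560, minus), a germline RNA helicase gene, is CpG-rich but had no region in any list, and Foxp3 (chrX:7579426-7579675, plus), the master regulator of regulatory T cells, is CpG-poor. Cyp4f16 (chr17:32536307-32536556, plus) ranked higher in cDKO libraries. Vash2 (chr1:190978999-190979248, minus) and Cgref1 (chr5:30945481-30945730, minus) ranked lower in them, and Slc26a10 (chr10:127180583-127180832, minus) ranked higher with IL-2.
Map9: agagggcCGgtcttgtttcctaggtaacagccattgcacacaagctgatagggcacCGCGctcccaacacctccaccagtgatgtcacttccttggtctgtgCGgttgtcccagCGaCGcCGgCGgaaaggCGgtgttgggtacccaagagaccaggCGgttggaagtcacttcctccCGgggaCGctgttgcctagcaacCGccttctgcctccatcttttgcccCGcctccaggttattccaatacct
B3gntl1: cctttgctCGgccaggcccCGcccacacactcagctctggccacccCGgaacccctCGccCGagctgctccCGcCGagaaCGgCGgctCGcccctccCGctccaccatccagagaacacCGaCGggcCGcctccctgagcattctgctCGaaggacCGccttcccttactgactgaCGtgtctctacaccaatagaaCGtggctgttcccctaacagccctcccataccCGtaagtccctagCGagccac
Ddx4: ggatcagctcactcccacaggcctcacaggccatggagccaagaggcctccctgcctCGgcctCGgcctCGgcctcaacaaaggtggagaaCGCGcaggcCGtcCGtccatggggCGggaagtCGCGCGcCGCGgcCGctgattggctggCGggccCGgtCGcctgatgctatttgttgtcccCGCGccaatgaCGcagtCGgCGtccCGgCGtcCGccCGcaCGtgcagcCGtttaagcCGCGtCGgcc
Foxp3: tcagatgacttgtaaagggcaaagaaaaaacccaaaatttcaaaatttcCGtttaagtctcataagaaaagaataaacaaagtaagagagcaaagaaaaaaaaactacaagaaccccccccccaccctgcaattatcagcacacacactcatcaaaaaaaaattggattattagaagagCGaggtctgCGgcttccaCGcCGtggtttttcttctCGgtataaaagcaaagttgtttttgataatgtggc
Cyp4f16: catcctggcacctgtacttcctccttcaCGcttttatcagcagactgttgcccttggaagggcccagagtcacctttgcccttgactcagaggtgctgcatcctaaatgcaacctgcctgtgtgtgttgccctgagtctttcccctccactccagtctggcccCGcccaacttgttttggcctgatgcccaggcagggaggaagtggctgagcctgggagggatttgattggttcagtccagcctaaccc
Vash2: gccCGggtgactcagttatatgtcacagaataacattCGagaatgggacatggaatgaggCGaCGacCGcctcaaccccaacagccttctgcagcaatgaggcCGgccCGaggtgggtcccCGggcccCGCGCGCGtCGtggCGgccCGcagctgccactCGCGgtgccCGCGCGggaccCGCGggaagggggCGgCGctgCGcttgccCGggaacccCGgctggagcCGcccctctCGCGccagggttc
Cgref1: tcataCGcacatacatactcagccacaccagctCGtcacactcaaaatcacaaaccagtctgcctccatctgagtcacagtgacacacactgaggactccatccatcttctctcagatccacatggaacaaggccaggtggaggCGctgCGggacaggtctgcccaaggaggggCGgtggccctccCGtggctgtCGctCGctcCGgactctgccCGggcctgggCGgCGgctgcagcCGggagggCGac
Slc26a10: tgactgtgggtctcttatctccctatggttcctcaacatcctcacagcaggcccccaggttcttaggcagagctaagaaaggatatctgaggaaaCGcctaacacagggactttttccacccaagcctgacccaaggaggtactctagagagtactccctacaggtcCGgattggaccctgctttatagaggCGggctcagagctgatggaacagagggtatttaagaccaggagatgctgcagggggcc
Between these stretches the number of CpG ran from 2 in Cyp4f16 and 3 in Slc26a10 through 6 in Foxp3 and 14 in both Map9 and Cgref1 to 20 in B3gntl1, 30 in Vash2 and 31 in Ddx4.

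The deposited lists held 65811 to 145979 peaks. The shortest was replicate 2 of control with IL-2 and the longest replicate 1 of control without IL-2, and the read depth behind them is unknown. All libraries were therefore cut to their 65811 peaks of highest −log10 p, called the equal-number lists, and a rank percentile is a peak's place in that list, near 100 for the strongest. The labelled cell type was checked at gene ends: the T cell receptor and identity genes, Cd3e, Cd3g, Cd4, Cd28 and Lck among them, had a listed region in all 8 libraries in 17 of 17 cases. Ms4a1 and Pax5 (B cells), Klrb1c and Ncr1 (NK cells), Csf1r (myeloid cells) and Alas2 and Hba-a1 (erythroid cells) had no gene-end region in any list. In such bulk samples, fewer open cells and less opening per cell cannot be told apart.

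Gene starts made up most of the gene-end regions, and they were the wide ones. Of the 18988 regions, 11402 lay near a start only, 3209 near a 3′ end only and 579 near both, while for 3798 the gene's strand was not in the promoter table used here. Regions at starts had a median width of 874 bp (quartiles 400 and 1182 bp), against 248 bp (151 and 417 bp) at 3′ ends and 236 bp away from gene ends. The widest gene-end region spanned 3351 bp and lay near a start and a 3′ end.

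Starts were also the regions that the libraries shared. Of all start regions, 66.4% were in all 8 equal-number lists, against 23.1% of 3′-end regions and 19.2% of the 156288 regions away from gene ends. Regions near both a start and a 3′ end stood close to the starts, at 64.2%, and regions of unknown strand at 50.7%. Taken over every gene-end region, 10611 (55.9%) were in all 8 lists, 1132 (5.96%) in 1 list and 4554 (24.0%) in none of them, the last being peaks listed only among the weaker ones of a deposited list. Away from gene ends 47.9% were in none. In the deposited lists at full length the shares in all 8 were 62.7% for gene ends and 25.8% elsewhere, so the order of these classes was the same without cutting the lists.

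**Figure D1:**
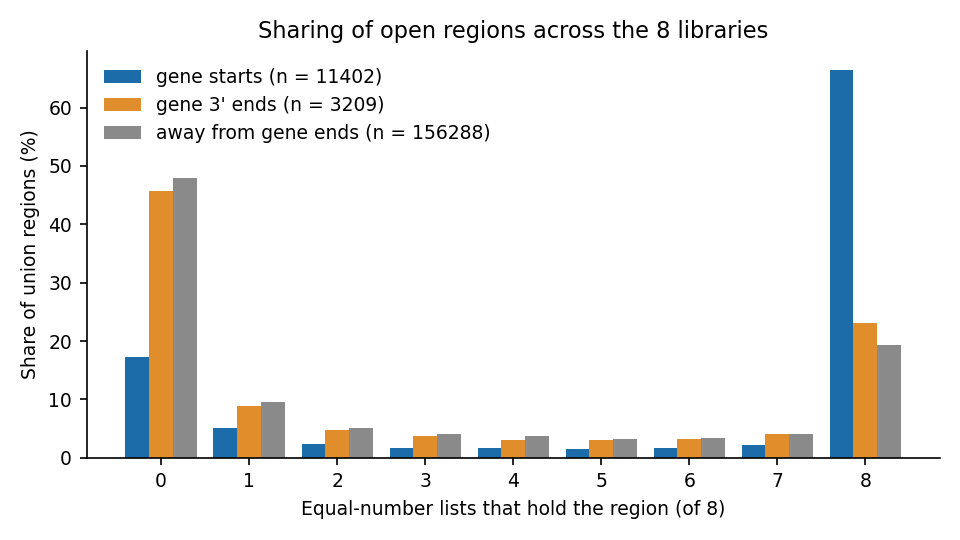
Share of union regions (y axis, percent of each class) by the number of equal-number lists, from 0 to 8, that hold them (x axis), for regions at gene starts, at gene 3′ ends and away from gene ends. Starts pile up at 8 lists (66.4%), whereas 3′ ends (23.1%) and other regions (19.2%) have their highest bar at 0.

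Openness at starts was concentrated close to the start, and 3′ ends showed no such peak. The 250-bp bins leave out regions that had the other kind of end within 3000 bp. Among regions with a midpoint within 250 bp of the nearest start, 78.1% of 5617 were in all 8 lists and the median width was 926 bp. Between 250 and 500 bp the share was 70.9%, between 500 and 750 bp 38.6% and between 750 and 1000 bp 29.2%, where the median width had dropped to 281 bp. Beyond the limit of the rule, at 1000 to 1250 bp, it was 26.3%, and at 2750 to 3000 bp 20.5%. Around 3′ ends the share in all 8 lists was 22.4% within 250 bp and 21.7% to 23.7% in the other bins up to 1000 bp, and 19.6% to 24.3% out to 3000 bp. Just inside the 1 kb limit, at 900 to 1000 bp from a gene end, 24.1% of 932 regions were in all 8 lists, and just outside it, at 1000 to 1100 bp, 25.8% of 986.

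**Figure D2:**
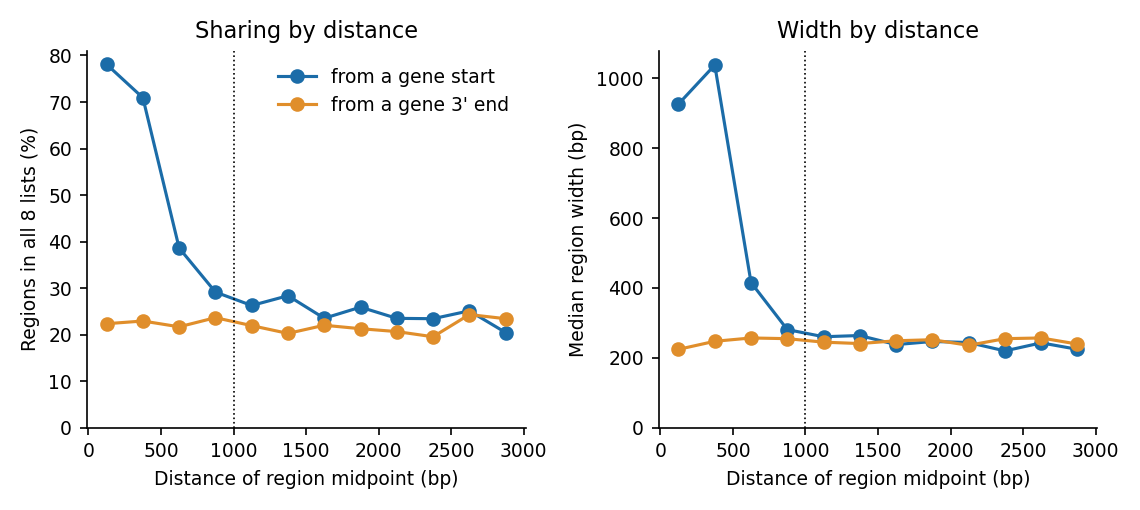
Share of regions in all 8 equal-number lists (left, percent) and median region width (right, bp) against the distance of the midpoint from a gene start or a gene 3′ end, in bins of 250 bp; the dotted line marks 1 kb. Within 1 kb of a start the share falls from 78.1% to 29.2%, and the width goes from 926 bp through 1037.5 bp to 281 bp. The 3′-end curve is flat. Regions with the other kind of end within 3000 bp are left out of each curve.

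Regions with gene starts on both strands in reach were shared most often of the kinds counted. Whether they lay between the genes was not checked. The 973 regions with starts on both strands within 1 kb were in all 8 lists in 88.3% of cases and had a median width of 1137 bp, against 64.3% and 842 bp for regions with 1 start. Regions near 2 or more 3′ ends and no start were in all 8 lists in 31.5% of 321 cases, and those near 1 such end in 22.2% of 2888. Counted by gene, 8673 of 17492 genes of known strand (49.6%) had a start region in all 8 lists and 36.5% had none in any deposited list. Only 6.61% of the same genes had a 3′-end region in all 8.

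Within every library, peaks at gene ends were wider, of higher fold over background and of higher rank than other peaks; fold and −log10 p are the authors' values for each peak. Median widths averaged 753 ± 44.1 bp at gene ends and 302 ± 18.8 bp elsewhere (SD, n = 8 libraries). Median folds were 10.1 ± 0.758 and 8.14 ± 1.10, and median rank percentiles 78.8 ± 0.795 and 44.5 ± 0.203. Each of these 3 differences had the same sign in 8 of 8 libraries, which gave p = 0.00781 in the exact 2-sided sign-flip permutation test (the smallest p it allows) and adjusted p = 0.00781 over 6 tests. With lists cut to 32905 peaks, the difference in fold shrank to 0.367 and no longer passed (adjusted p = 0.125, exact permutation test).

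Starts carried these differences. Peaks at starts had a median width of 818 ± 46.5 bp, a median fold of 10.6 ± 0.703 and a median percentile of 83.0 ± 0.715 (SD, n = 8 libraries), against 298 ± 19.1 bp, 7.74 ± 1.08 and 45.2 ± 1.503 at 3′ ends. All 3 differences held in 8 of 8 libraries (exact sign-flip permutation test, p = 0.00781, adjusted p = 0.00781). Peaks at 3′ ends had values close to those of peaks away from genes: the difference in median fold was -0.492 to -0.209 over the libraries, and that in median width -9 to 0 bp, values given without a test. Along the ranked lists, starts held 48.3% ± 2.33 of the strongest 10% of peaks and 5.10% ± 0.729 of the weakest 10%. The 3′ ends held 0.775% ± 0.0660 of the strongest 10% and 1.93% ± 0.211 of the weakest, with no mean above 2.16% in between.

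**Figure D3:**
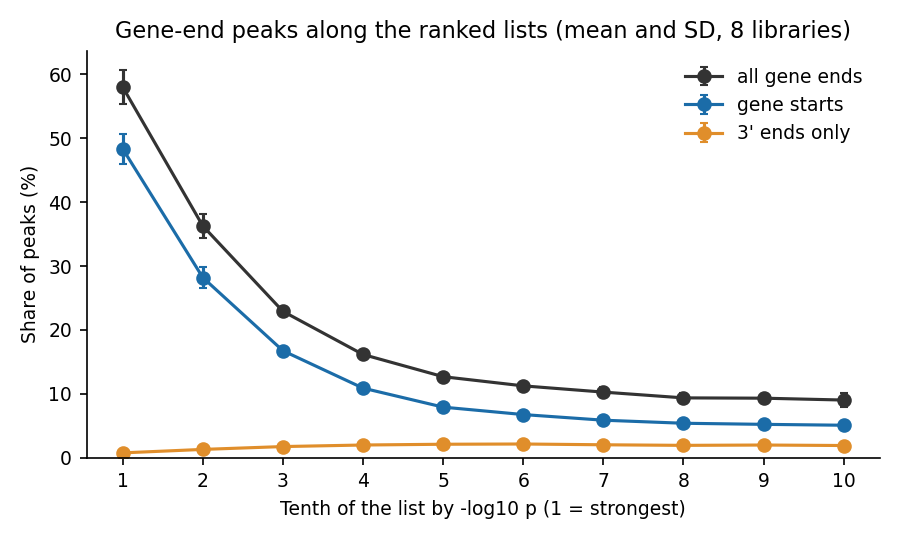
Share of peaks at all gene ends, at gene starts and at 3′ ends only (y axis, percent; points are means and bars SD over 8 libraries) in each 10% of the equal-number lists ordered by −log10 p (x axis, 1 the strongest). All gene ends hold 58.0% of the strongest 10%, starts alone 48.3%, and 3′ ends stay between 0.775% and 2.16%.

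Summits, the points of highest signal, sat on the start itself. For regions in reach of 1 start, the median summit lay 2 to 10 bp upstream in 7 libraries, with 50.9% to 54.0% of summits upstream. In the shortest list, replicate 2 of control with IL-2, it lay 18 bp downstream, with 43.6% upstream. The 50-bp bin just upstream of the start held the most summits, 21.3% on average over the libraries.

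Promoters with a region in all 8 lists were rich in CpG, and those with no region were poor in it. Of 17492 promoters (300 bases, 250 before and 50 after the start, 1 per gene), 8964 (51.2%) overlapped a region in all 8 equal-number lists and 6703 (38.3%) overlapped none. The shared promoters had a median of 22 CpG and 61.7% GC, and those with no region 3 CpG and 46.7% GC. Among promoters with 0 to 4 CpG, 5.34% of 5097 were open in all 8 lists; with 10 to 14 the share was 61.8%, and with 25 to 29 it was 86.2%. Even above that, at 30 or more CpG, 1.95% of 2615 promoters had no region, Ddx4 being a gene of that kind by its 250 upstream bases. For 9.95% of genes, the promoter table puts the start over 1 kb from the end of the RefSeq gene body, and regions there can be missed by the gene-end rule.

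**Figure D4:**
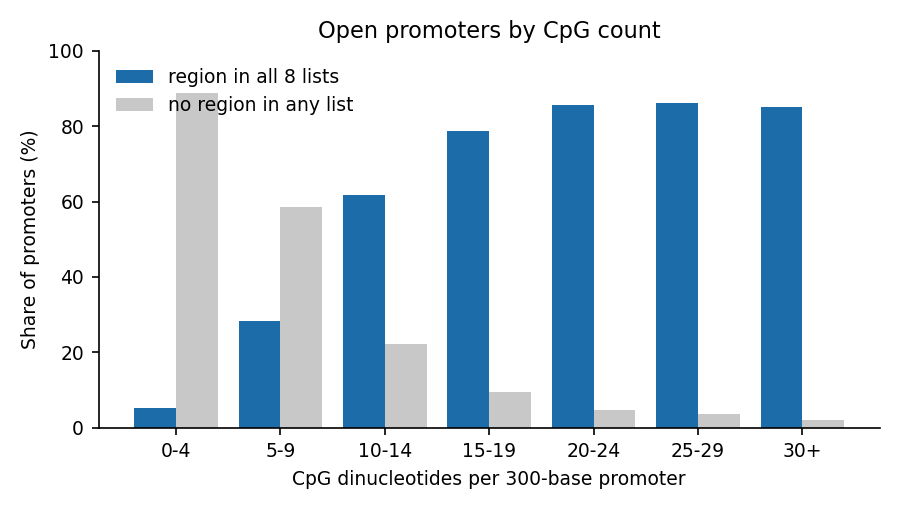
Share of promoters (y axis, percent) that overlap a region in all 8 equal-number lists (blue) or no region in any list (grey), by the number of CpG dinucleotides per 300-base promoter (x axis). The blue bars climb from 5.34% at 0 to 4 CpG to 86.2% at 25 to 29 CpG.

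Short sequence motifs, searched on both strands of the same 300 bases, were spread unevenly, and several contain a CpG or are GC-rich, so their shares move with base composition. The GC box bound by Sp1-type factors (GGGCGG) was in 69.2% of promoters open in all 8 lists, 13.1% of those with no region and 46.3% of all. An ETS-type site (CCGGAAG) was in 20.6%, 2.21% and 11.9%, and the palindrome of NRF1, named here without its letters, in 11.9%, 0.686% and 6.66%. The TATA box (TATAAA) went the opposite way, at 6.05%, 24.2% and 13.3%. The NF-Y box (CCAAT) hardly differed, at 39.8%, 40.6% and 39.2%. AP-1 (TGANTCA) was in 4.21% of promoters open in all 8 lists and 10.6% of those with no region, and a STAT-type motif (TTCNNNGAA) in 6.44% and 10.0%. A match gives letters in a window, not a bound site.

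Gene lists differed in how many of their genes were open. Housekeeping sets were open nearly throughout: 75 of 78 ribosomal protein genes and 21 of 23 cell cycle genes had a gene-end region in all 8 lists, against 51.2% of all 21900 protein-coding genes. T-cell lists were close behind, with 16 of 20 regulatory T cell genes and 16 of 19 activation genes. The signalling lists had 15 of 18 TGF-β and SMAD genes and 14 of 18 IL-2 and STAT5 genes, and the naive and memory list 10 of 13. Of lists of general cell functions, glycolysis and nutrient uptake had 14 of 18 genes and DNA methylation 12 of 16. Helper effector genes were split, with 38.9% open in all 8 lists, near the 37.5% of the B cell list. Il5, Gzmb, Prf1, Eomes, Il12rb2, Bcl6 and Cxcr5 were open in all 8, Ifng in 1 and Tbx21 in 3 lists, and Il4, Il17a and Il22 had no region. The other lineages stood at 3 of 18 germline, 3 of 8 B cell, 2 of 12 myeloid, 1 of 8 CD8 and NK cell and 2 of 12 non-blood genes. Those open in all 8 were Dazl, Hormad1 and Stra8 (germline), Cd79a, Ebf1 and Blk (B cell), Spi1 and Flt3 (myeloid), Cd8b1, and Apoa1 and Sftpc. For Hormad1, Stra8, Cd79a and Apoa1 the listed region lay at the 3′ end, not at the start.

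The highest mean ranks over the 8 libraries, which put a region near the top in each of them, belonged to 3′-end regions of Wls, a carrier of Wnt proteins (chr3:159939268-159939729), and Lars2, the mitochondrial leucyl-tRNA synthetase (chr9:123461780-123462245), with percentiles of 99.970 to 99.987 and 99.951 to 99.973. Next came the starts of Map9, a microtubule-associated protein (chr3:82357740-82358629, 99.904 to 99.952), B3gntl1 (chr11:121672690-121673855, 99.823 to 99.957), Sel1l, an adaptor of protein degradation in the endoplasmic reticulum (chr12:91848551-91849504), and Pitrm1, a mitochondrial protease (chr13:6547474-6548619). The regions of Wls and Lars2 were 462 and 466 bp wide, with folds over background of 30.5 to 36.0 and 22.2 to 27 over the libraries. The settings used to map reads are not on record. Whether reads from repeated sequence raised the signal of these regions was not tested, so their place at the top is uncertain. At the top of the lists a percentile has no room to rise, so no test of these 6 is given.

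Loss of Tet1 and Tet3 moved no summary of the gene-end regions per library past the test, nor did IL-2. Gene ends held 19.7% ± 0.641 of listed peaks in cDKO and 19.4% ± 0.711 in control libraries (SD, n = 4 each), and 19.9% ± 0.712 with against 19.2% ± 0.379 without IL-2. They held 52.8% ± 1.22 of the 10000 strongest peaks in cDKO and 51.1% ± 3.18 in control libraries. In each of these pairs the groups overlapped. The ratio of the median width at gene ends to that elsewhere came nearest to separating the genotypes, at 2.54 ± 0.0280 in cDKO and 2.45 ± 0.0643 in control libraries (exact permutation test, p = 0.0571, adjusted p = 0.571). Adjusted p-values of the 10 tests ran from 0.571 to 0.971 (exact 2-sided permutation, where 4 against 4 libraries cannot go below p = 0.0286).

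Single gene-end regions did differ in rank between genotypes. Ranks by −log10 p were turned into normal scores for the 40694 regions in all 8 lists, of which 10611 were gene-end regions. These scores were fitted with limma. A difference of 1 equals 1 SD of the scores, and it covers fewer percentile points near the top or bottom of a list than in its middle. In cDKO libraries 233 gene-end regions (2.196%) ranked higher and 99 (0.933%) lower at adjusted p below 0.05, against 3.4% higher and 5.07% lower over all regions tested. Both shares at gene ends were below those of all regions, and 70.2% of the calls at gene ends were higher in cDKO, against 36.9% of those away from gene ends; neither difference was tested. The split depends on the scale. When scores were centred within gene-end regions and within other regions in each library, an alternative added once the data had been seen, it became 171 higher and 150 lower (53.3% higher). The median difference was 0.0437 at gene ends and 0.0258 over all regions, and the median score of start regions was itself lowest in the longest list (0.680, replicate 1 of control without IL-2) and highest in the shortest (0.846, replicate 2 of control with IL-2); the part of list length in the split was not tested.

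By position, starts gave 153 higher and 53 lower calls of 7572 tested, and 3′ ends 33 higher and 27 lower of 742. Promoters under the regions that ranked higher in cDKO had a median of 23 CpG (n = 154) and those under the lower ones 13 (n = 46), beside 22 for all 8173 promoters of tested regions. The GC box was in 81.2% of the first, 39.1% of the second and 69.6% of all. The ETS-type site, also commoner in open promoters, went the other way, at 14.9%, 23.9% and 21.0%, and none of these differences was tested. Leaving out a cDKO library cut the number of calls by more than 1.5 times: without replicate 1 or 2 of cDKO without IL-2 it was 55 or 63 higher and 41 or 49 lower, and without replicate 1 or 2 of cDKO with IL-2 55 or 96 higher and 33 or 59 lower. Ranked by fold instead of −log10 p, it was 36 higher and 32 lower.

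The largest rise was at the 3′ end of Arhgap25, a GTPase-activating protein (chr6:87457013-87458103), in a region whose midpoint lay 986 bp from that end and so only just inside the limit. It ranked at percentiles 8.81 and 42.8 in control and 87.3 and 85.9 in cDKO libraries without IL-2, and at 29.9 and 32.9 in control and 86.7 and 87.6 in cDKO libraries with IL-2. All 4 cDKO values stood above all 4 control values, and the fold over background was 11.0 to 12.0 against 5.10 to 6.91. The score difference was 2.19 ± 0.242 (SE, limma, adjusted p = 4.2e-05). The start of 6330403K07Rik (chr11:71033079-71033723) had percentiles of 37.4 and 20.0 in control and 75.5 and 69.98 in cDKO libraries without IL-2, and 20.4 and 47.2 against 60.7 and 75.8 with IL-2. Again the groups did not overlap (difference 1.37 ± 0.274, limma, adjusted p = 0.0036).

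Qtrt1, the catalytic subunit of the enzyme that puts queuine into tRNA, rose at its 3′ end (chr9:21419579-21420083). Its percentiles were 46.2 and 46.8 in control and 69.7 and 79.9 in cDKO libraries without IL-2, and 24.1 and 21.5 against 76.6 and 66.8 with IL-2, a difference of 1.34 ± 0.229 (SE, limma, adjusted p = 0.0012). Cyp4f16, a cytochrome P450, rose at its start (chr17:32536247-32536769). Without IL-2 its percentiles were 61.4 and 69.7 in control and 76.3 and 74.6 in cDKO libraries, and with IL-2 33.7 and 0.382 against 74.2 and 68.5. The genotypes overlapped by a small margin. The difference was 1.39 ± 0.333 (limma, adjusted p = 0.012), and its call was lost without replicate 1 of cDKO without IL-2 (adjusted p = 0.0544) or replicate 1 of cDKO with IL-2 (adjusted p = 0.0733). The other 6 of the 10 largest rises were the start of Pou6f1, the 3′ ends of Myrip, Maz (also in reach of Prrt2), Chst3 and Cenpp, and an end of unknown strand of Dpysl2. They encode, in this order, a POU homeodomain factor, a linker of Rab27 to myosin, a MYC-associated zinc finger protein, a chondroitin sulfotransferase, a centromere protein and a protein of axon growth. Of the 10, Arhgap25, 6330403K07Rik and Qtrt1 kept their call whichever library was left out; the other 7 lost it, for example, without replicate 1 of cDKO with IL-2 (adjusted p 0.0687 to 0.118, limma).

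Regions that fell in cDKO libraries held their calls better, 8 of 10 whichever library was left out. Slc37a3, a solute carrier, had the largest fall, at its 3′ end (chr6:39334102-39334680). It ranked at percentiles 97.0 and 96.4 in control and 58.5 and 51.4 in cDKO libraries without IL-2, and at 94.4 and 84.5 against 21.5 and 51.2 with IL-2. The groups did not overlap, and the score fell by 2.14 (SE 0.211, limma, adjusted p = 4.1e-05). H6pd, the hexose-6-phosphate dehydrogenase of the endoplasmic reticulum, fell by 1.71 (SE 0.194, limma, adjusted p = 4.6e-05) at its 3′ end (chr4:149979630-149980329). Its percentiles were 87.7 and 79.5 in control and 36.1 and 35.2 in cDKO libraries without IL-2, and 91.9 and 88.1 against 45.5 and 59.1 with IL-2. Again every control library stood above every cDKO library.

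Vgll4, a cofactor of TEAD transcription factors, fell at its 3′ end (chr6:114861125-114861711, also in reach of Atg7) from percentiles of 82.8 and 79.7 to 5.72 and 35.7 without IL-2 and from 88.0 and 83.1 to 48.5 and 59.6 with IL-2 (difference -1.81, SE 0.250, limma, adjusted p = 0.00024). Sh2d4a, an SH2-domain adaptor (chr8:68348465-68348799, strand unknown), went from 77.1 and 73.9 to 33.9 and 28.7 without IL-2 and from 73.4 and 36.6 to 6.24 and 8.07 with IL-2 (difference -1.80, SE 0.305, limma, adjusted p = 0.0011). In neither gene did the genotypes overlap. Among starts, Cgref1, a calcium-binding regulator of cell growth (chr5:30945245-30945863), ranked at 68.3 and 66.4 in control and 21.3 and 6.14 in cDKO libraries without IL-2, and at 60.3 and 74.98 against 43.9 and 41.0 with IL-2. Its score fell by 1.5004 without overlap (SE 0.271, limma, adjusted p = 0.0018). The start of Vash2, a tubulin carboxypeptidase (chr1:190978485-190979596), ranked at 43.6 and 50.4 in control and 20.3 and 9.90 in cDKO libraries without IL-2, and at 55.6 and 63.4 against 32.2 and 2.1995 with IL-2. Control libraries again stood above all cDKO libraries. Its fall of 1.54 (SE 0.371, limma, adjusted p = 0.012) lost the call without replicate 2 of cDKO without IL-2 (adjusted p = 0.0596) or replicate 2 of cDKO with IL-2 (adjusted p = 0.0648). The 3′ ends of Tmem42, Samm50, which builds the mitochondrial outer membrane, and Cmtm8, and the start of H4f16, a histone H4 gene, completed the 10. Samm50 lost its call without replicate 1 of cDKO with IL-2 (adjusted p = 0.0618, limma). Histone genes are near-identical copies, and the labels do not say how reads were shared among them, so H4f16 is uncertain.

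**Figure D5:**
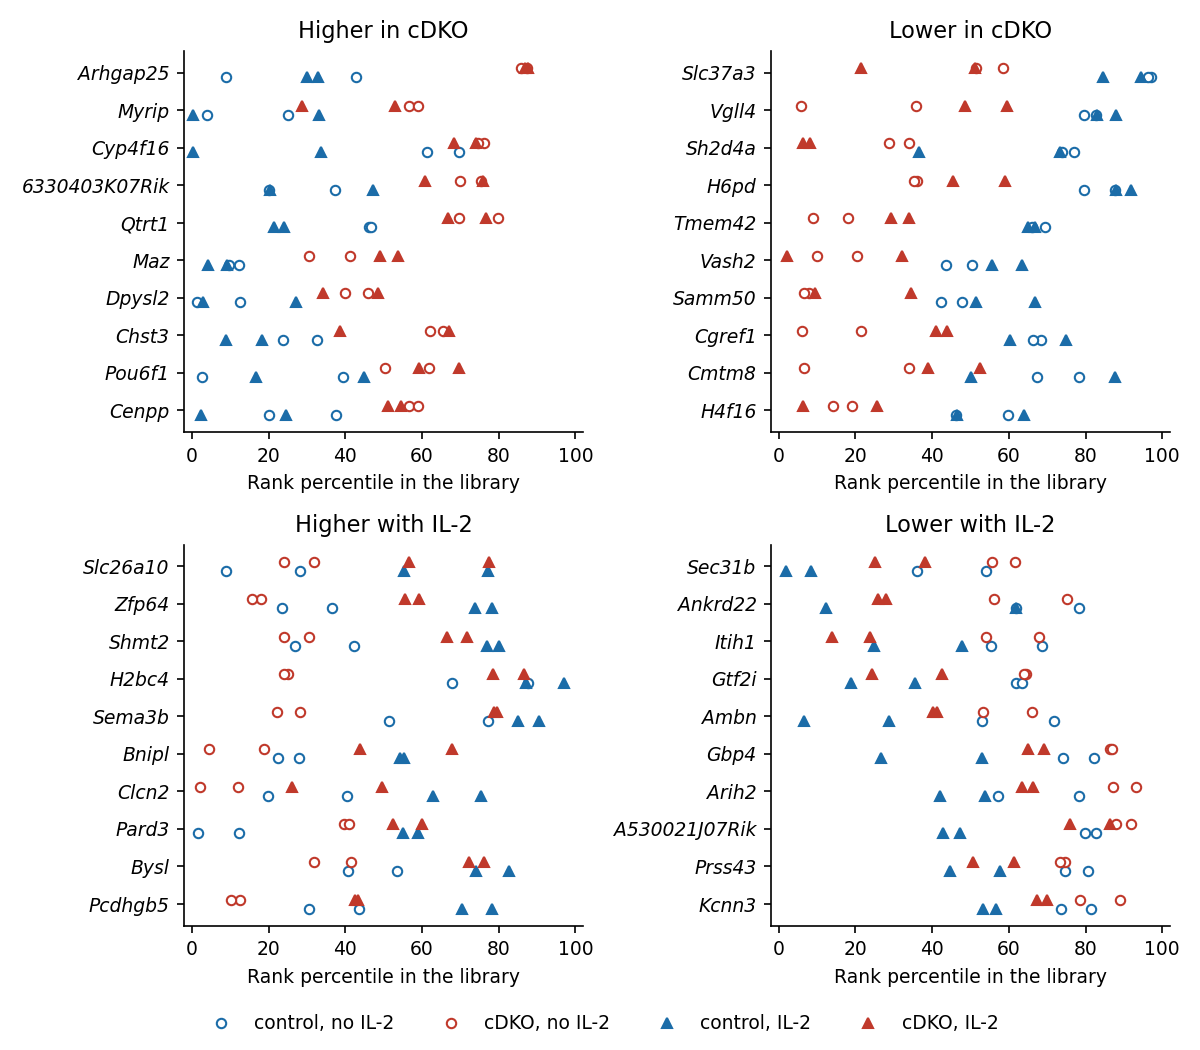
Rank percentile in each library (x axis, 0 to 100) of the 10 gene-end regions with the largest score difference per comparison and direction (y axis, nearest gene). Open circles are libraries without IL-2, filled triangles with IL-2, blue control and red cDKO, 2 libraries per group; in the upper panels the colours separate for every gene but Cyp4f16, Myrip and Cmtm8, and in the lower panels circles and triangles overlap for H2bc4, Clcn2, Pcdhgb5, Sec31b, Ankrd22, Arih2 and A530021J07Rik and separate for the others.

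Arhgap25, Slc37a3, Vgll4 and H4f16 lie on chromosome 6, as does Tet3, and so do Noto and Lag3, described below. Among these, Noto and Arhgap25 lie nearest to Tet3 by coordinate. Calls were counted per chromosome only, and their distance from Tet3 was not tested. Of the 513 tested gene-end regions on chromosome 6, 24 (4.68%) were called for genotype, 14 higher and 10 lower, against 3.05% of 10098 elsewhere. Chromosome 1 had the highest share, 5.32%. Without chromosome 6 the fit gave 214 higher and 87 lower.

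IL-2 changed fewer gene-end regions. With IL-2 29 (0.273%) ranked higher and 17 (0.160%) lower in limma, against 1.35% and 0.89% of all regions tested. Centred within gene-end and other regions, the counts were 24 and 23. Leaving out replicate 1 or 2 of control without IL-2 left 29 or 33 higher and 10 lower each. Without replicate 1 or 2 of cDKO without IL-2 there were 15 or 19 higher and 2 or 3 lower. Without replicate 1 or 2 of control with IL-2 there were 53 or 15 higher and 31 or 10 lower, and without replicate 1 or 2 of cDKO with IL-2 11 or 7 higher and 4 or 2 lower. Ranked by fold, 4 were higher and 3 lower.

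Shmt2 and Bysl were among the regions that rose with IL-2 whichever library was left out. The start of Shmt2, the mitochondrial serine hydroxymethyltransferase (chr10:127521527-127522529), ranked at percentiles 42.3 and 26.9 in control and 24.0 and 30.6 in cDKO libraries without IL-2, and at 80.0 and 76.9 and 66.4 and 71.7 with it. All 4 libraries with IL-2 stood above the 4 without (difference 1.57 ± 0.242, SE, limma, adjusted p = 0.0013). Bysl, which acts in ribosome assembly, had a 3′-end region (chr17:47598045-47598654) at 53.4 and 40.7 in control and 41.4 and 31.9 in cDKO libraries without IL-2, and at 74.1 and 82.8 and 72.1 and 76.1 with it. Its groups did not overlap either (1.28 ± 0.219, limma, adjusted p = 0.003). Slc26a10, of the SLC26 anion transporters, had the largest difference, 1.61 ± 0.297 (limma, adjusted p = 0.005), at its start (chr10:127179958-127180779). Its percentiles were 8.79 and 28.2 in control and 23.9 and 31.9 in cDKO libraries without IL-2, and 55.4 and 77.1 and 56.5 and 77.5 with it. No library with IL-2 was as low as one without. The call was lost without replicate 2 of cDKO with IL-2 (limma, adjusted p = 0.0722). Ranked by fold, Bysl and Slc26a10 were not called.

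H2bc4 and Sema3b were called for both factors, as were Clcn2, Pcdhgb5, Arih2 and A530021J07Rik, named below. Clcn2 and Pcdhgb5 differed by -1.12 and -1.10 for genotype (limma, adjusted p = 0.0454 and 0.0173). Ranked by fold, the genotype calls of Clcn2, Arih2 and A530021J07Rik were lost. H2bc4, a histone H2B gene (chr13:23691766-23692316, strand unknown), ranked at 87.8 and 67.9 in control and 24.9 and 24.0 in cDKO libraries without IL-2, and at 97.0 and 87.1 and 78.6 and 86.5 with it. The cDKO libraries without IL-2 were the low ones; limma gave 1.51 ± 0.216 for IL-2 (adjusted p = 0.00077) and -1.33 ± 0.216 for genotype (adjusted p = 0.0008), and as a histone copy it is uncertain like H4f16. Sema3b, a semaphorin (chr9:107609189-107609990, strand unknown), had 77.1 and 51.4 in control and 28.1 and 22.3 in cDKO libraries without IL-2 and 85.2 and 90.6 and 78.8 and 79.5 with it. Its IL-2 difference was 1.51 ± 0.217 (limma, adjusted p = 0.00079) and was not called when ranked by fold (adjusted p = 0.0628). Its genotype difference was -0.93 (limma, adjusted p = 0.0102), a call lost without replicate 1 of control without IL-2 (0.0581), without replicate 1 of cDKO with IL-2 (0.0591), when ranked by fold (0.0843) and on untransformed percentiles (0.0798). For neither gene did the interaction of genotype and IL-2 pass. Zfp64, a zinc finger factor, rose at its 3′ end, and Shmt2, Bysl, H2bc4, Sema3b and Zfp64 were the 5 of the 10 largest that kept the IL-2 call whichever library was left out. Bnipl (in reach of Gm128 too), Clcn2 (a chloride channel, with Fam131a in reach), Pard3 (a polarity scaffold) and Pcdhgb5 (a protocadherin) completed them and, with Slc26a10, lost the call without replicate 2 of cDKO with IL-2 (adjusted p 0.0722 to 0.196, limma).

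Of the regions lower with IL-2, that of Gbp4, an interferon-induced GTPase (chr5:105114722-105115154, strand unknown), was the 1 of 10 whose call held whichever library was left out. It ranked at 82.2 and 74.2 in control and 86.4 and 86.9 in cDKO libraries without IL-2, and at 53.0 and 26.8 and 69.2 and 65.0 with it. The groups did not overlap, and the score fell by 1.08 (SE 0.199, limma, adjusted p = 0.005), although ranking by fold gave no call. The start of A530021J07Rik fell by 0.867 with IL-2 (SE 0.169, limma, adjusted p = 0.0072) and rose by 0.880 in cDKO (adjusted p = 0.0027). Also lower were the starts of Sec31b (a coat protein of secretory vesicles), Ankrd22 and Itih1, the 3′ ends of Gtf2i (a general transcription factor), Ambn (an enamel protein), Arih2 (a ubiquitin ligase) and Kcnn3 (a potassium channel), and Prss43, a serine protease. Those 8 and A530021J07Rik lost the call without replicate 2 of cDKO with IL-2 (adjusted p 0.0732 to 0.163, limma).

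No gene-end region passed limma's test of the genotype by IL-2 interaction, and none of the 40694 regions did (0.0%). At unadjusted p below 0.05 there were 354 gene-end regions (3.34%), against 4.41% of all. Without replicate 1 of control with IL-2, 1 gene-end region passed.

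Presence or absence gave few calls at gene ends. Of the 387 gene-end regions in exactly 4 equal-number lists, 47 (12.1%) were in all 4 cDKO and no control list, against 11.0% of all such regions, and 35 (9.04%) in all 4 control and no cDKO list, against 17.4%. For IL-2, 15 (3.88%) were gained, against 5.42%, and 8 (2.07%) lost, against 3.57%. In the full deposited lists 0 of the 47 and 4 of the 35 were still absent from the other genotype, and 0 of the IL-2 calls. Of the regions gained in cDKO, those listed most strongly lay at the 3′ ends of Noto, Cacnb1 and Nsrp1, the start of Tacr1, a start and 3′ end at Rnf224, and an end of 9030624G23Rik. Noto, a notochord homeobox gene (chr6:85428890-85429291), ranked at 40.0 and 40.2 in the cDKO libraries without and 55.9 and 49.4 in those with IL-2. The regions lost in cDKO were led by Smco3, Peli1, Atrn, Sdcbp2, Spsb1 and Arntl2. At the 3′ end of Peli1, a ubiquitin ligase of T cell activation (chr11:21149547-21149820), control libraries ranked at 88.1 and 61.7 without and 74.4 and 42.1 with IL-2. With IL-2, the leading gains were at Spatc1l, Ifitm2, Prkd1, Rprml, Tmem268 and Aff1, and the losses at Unc79, Bco2, Slc43a1, Cd53, Ppic and Ankrd35.

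Among T-cell genes, calls were scattered over single regions. Of the 24 tested regions of the regulatory T cell list 2 rose in cDKO, at Lag3 and the 3′ end of Tigit, both inhibitory receptors, and 0 fell, beside 3.4% higher over all regions tested and 2.196% over gene-end regions. The list was not tested against those shares. The list's median difference was 0.0185, beside 0.0258 for all regions. Lag3 (chr6:124911313-124912142, strand unknown) ranked at 52.1 and 56.8 in control and 75.7 and 80.2 in cDKO libraries without IL-2, and at 33.3 and 54.8 against 66.7 and 76.5 with it (0.91 ± 0.214, limma, adjusted p = 0.011). Tigit (chr16:43624892-43625384) ranked at 29.9 and 48.1 against 62.9 and 61.3 without, and at 8.80 and 27.6 against 68.9 and 58.7 with IL-2 (1.17 ± 0.279, limma, adjusted p = 0.011). In both the genotypes did not overlap. Tigit had 4 gene-end regions, and the one of highest mean rank, at 62.6 to 81.4 over the 8 libraries, was not called for genotype (difference 0.034, limma, adjusted p = 0.941). Lag3 lost its call without replicate 2 of cDKO without or with IL-2 (adjusted p 0.0716 and 0.0683) and Tigit without replicate 1 or 2 of cDKO without IL-2 (0.0588 and 0.0503) or replicate 1 of cDKO with it (0.0821, limma).

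Cd3e, a chain of the T cell receptor complex, had 1 region that rose and 1 that fell in cDKO, both about its 3′ end. The first (chr9:44998130-44998580) ranked at 40.4 and 42.1 in control and 46.3 and 61.8 in cDKO libraries without, and at 25.7 and 25.2 against 61.1 and 69.8 with IL-2. The second (chr9:44999206-44999493) ranked at 55.8 and 59.1 against 22.6 and 18.7 without, and at 52.8 and 54.2 against 32.0 and 36.7 with IL-2. In neither did the genotypes overlap. The rise (0.87 ± 0.259, limma, adjusted p = 0.04) was lost whichever of the 8 libraries was left out (adjusted p 0.0568 to 0.214), and the fall (-1.05 ± 0.276, limma, adjusted p = 0.021) was lost without replicate 2 of control without IL-2 or any 1 cDKO library (adjusted p 0.0542 to 0.0862).

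Pgk1, the phosphoglycerate kinase of glycolysis, rose at its start (chrX:106186581-106187365). Its percentiles were 96.5 and 94.1 in control and 99.9 and 99.9 in cDKO libraries without IL-2, and 97.3 and 97.0 against 99.5 and 99.8 with IL-2. No control library reached a cDKO library (1.13 ± 0.171, limma, adjusted p = 0.00045), although ranking by fold gave no call (adjusted p = 0.487). Slc16a3, a lactate carrier, was the other of 18 tested glycolysis regions that rose, and 0 of 18 fell, against 3.4% higher and 5.07% lower over all regions. Its call was lost in 5 of the 8 fits that left out a library (adjusted p up to 0.0708, limma) and when ranked by fold. Mbd2, Cdc6, Rps15, Il5, Eomes and Skap1 had 1 region each that rose, and each lost its call on leaving out at least 1 cDKO library (adjusted p up to 0.0905 for Mbd2 and 0.216 for Eomes, limma). Cd79a, a B cell gene, had a 3′-end region in the 4 control and no cDKO equal-number list, but in all 8 deposited lists. Of the same B cell list Ebf1 and Blk were open in all 8 lists and Ms4a1 and Pax5 had no region, and the part of other cell types in that call was not tested. Stat5b, Jund and Ccnd3 each had a region gained in cDKO, shared with the neighbours Stat5a, Iqcn and Bysl, and all 3 were weak, with no percentile over 32.9. In the IL-2 and STAT5 list 1 of 15 tested regions rose with IL-2, against 1.35% of all regions and 0.273% of gene-end regions. It lay at Socs2, a STAT5-induced inhibitor of cytokine signalling (chr10:95415262-95417640, strand unknown). It ranked at 66.4 and 69.7 in control and 59.5 and 56.7 in cDKO libraries without, and at 85.3 and 92.3 and 79.9 and 75.3 with IL-2, without overlap (0.85 ± 0.171, limma, adjusted p = 0.0088). The call was lost without replicate 1 of cDKO with IL-2 (limma, adjusted p = 0.0634) and when ranked by fold (adjusted p = 0.402). The TGF-β and SMAD list had 0 calls among 15 tested regions.

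The start of Tet3 was open in control and cDKO libraries alike, and that of Tet1 was weak in both. The start of Tet3 (chr6:83455445-83457315) ranked at percentiles 80.3, 87.8, 79.5 and 91.2 in control and 85.4, 86.8, 90.1 and 84.7 in cDKO libraries, and Tet2 (chr3:133543968-133545230) between 82.2 and 92.0 throughout. Neither was called for genotype (limma, adjusted p = 0.813 and 0.657). The start region of Tet1 (chr10:62886244-62887456) was in 4 of 8 equal-number lists, in 1 control and 0 cDKO libraries without IL-2 and in 1 control and 2 cDKO libraries with it, at percentiles of 2.57 to 23.0, and in all 8 deposited lists. A region open at a gene's start says nothing of whether an exon inside was deleted, so these values do not check the labels. Foxp3 had a start region (chrX:7578832-7579840) in 2 equal-number lists and all 8 deposited ones, at percentiles 7.96 in replicate 2 of cDKO without IL-2 and 22.6 in replicate 2 of control with IL-2. Its 3′-end region was in 5 lists, at 7.74 to 40.7. Il2ra, the high-affinity IL-2 receptor chain, had an open start (chr2:11642229-11643144) in all 8 lists, at 47.7 to 78.1. The start of Il2 (chr3:37125756-37126075) was in the equal-number lists of both control libraries without IL-2, at 41.9 and 19.0, and in no other. Cd4 had a region in all 8 lists (chr6:124863051-124864498, 45.4 to 63.5) that also lay in reach of Gpr162, and another (chr6:124888103-124888475) in 7. Ctla4, a checkpoint receptor, kept its start at 71.3 to 85.0, and no region of Il2ra, Cd4 or Ctla4 was called for genotype or IL-2.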

How the data were processed

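ATAC-seq was made from 8 libraries, 2 in each of 4 groups. One peak list per library was deposited in narrowPeak form, and the tools on record, per the submitters' processing notes, are MACS2 2.2.7.1, Bowtie2 2.4.1, SAMtools 1.3.1 and Trimmomatic 0.39 on GRCm38 (mm10), with no settings. Each deposited peak carries the authors' fold over background, a −log10 p, a −log10 q and an integer score. The score and the −log10 q were not used to rank peaks.

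The lists were merged into 175276 regions (overlap of 1 bp or more) and cut to 65811 peaks each. Gene bodies and strand came from RefSeq tables of GRCm38.p6, where 17492 of 21900 protein-coding genes had a strand. Exons, introns and UTRs were not analysed here. Normal scores of ranks among the 40694 regions in all 8 lists were fitted with limma 3.58.1 (R 4.3.3; residual df 4; Benjamini-Hochberg over all of them; threshold 0.05). Library values were compared by exact permutation (70 relabellings; 256 sign patterns within libraries) with numpy 2.4.6, scipy 1.17.1 and pandas 2.3.3, and figures were drawn with matplotlib 3.10.9. The procedure was tested on simulated data.

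Per comparison and direction, the text names up to 10 rank calls with the largest difference and up to 6 presence calls of best worst rank, then up to 4 called genes per list and direction, the 6 regions of highest mean rank, and Tet1, Tet2, Tet3, Foxp3, Il2ra, Il2, Ctla4 and Cd4. Some genes that this rule names are not reported here. The regions and the gene lists were chosen with earlier results of these data known, so their counts are not independent support for them. The alternatives tried were the deposited lists, halved lists, 50% coverage of a region, 500 bp from a gene end, no chromosome 6, the replicate block, other rank scales and leaving out each library.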

Additional observations from a re-analysis of the deposited data

How the results depend on the processing

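Outside the fits that left out a library, 124 results stayed on the same side of their threshold or within 1.5 times of their count, 24 counts moved, 6 values reversed and 1 weakened. The 6 reversals were of library values that did not pass in any setting (adjusted p 0.286 to 1, exact permutation test). The genotype difference in the share of peaks at gene ends was -0.349 percentage points with deposited lists, and at 50% coverage that in median percentile was -0.0477 and that in the share of starts 0.0126. The IL-2 difference in width ratio was -0.0454 with deposited lists, -0.0199 at 50% coverage and -0.00109 without chromosome 6. The difference in fold between gene-end and other peaks, 0.367 with halved lists, was the 1 that weakened. The cause was not tested.

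For genotype, halved lists gave 88 higher and 33 lower, 50% coverage 149 and 51, ranking by fold 36 and 32, 500 bp 63 lower, and centred scores 150 lower. For IL-2 the counts were 5 and 2 with halved lists, 11 and 7 at 50% coverage, 17 and 7 at 500 bp, 4 and 3 by fold, and 8 lower on untransformed percentiles. The share of genotype calls that were higher was 52.9% by fold and 53.3% with centred scores, against 70.2%. Fewer regions enter at 500 bp by construction. Presence calls lost for genotype were 14 with deposited lists, 17 with halved lists and 17 at 500 bp. IL-2 gains were 9 with deposited lists and 7 at 500 bp, and IL-2 losses 15 and 3.

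Leaving out 1 library gave 55 to 239 higher and 33 to 119 lower for genotype (shares higher 56.25% to 71.0%), 7 to 53 higher and 2 to 31 lower for IL-2, and 0 to 1 for the interaction. Presence calls, easier to meet with 7 lists, ranged from 61 to 95 gained and 39 to 57 lost for genotype and from 24 to 42 and 10 to 20 for IL-2. The difference in median percentile ranged from -0.0785 to 0.775 for genotype and from -0.213 to 0.525 for IL-2, and the IL-2 width ratio from -0.0417 to 0.0290. The negative percentile values came without replicate 1 of control without IL-2; the width ratio was also negative without replicate 1 (-0.0127) or 2 (-0.0075) of cDKO with IL-2. Of 41 genotype and 21 IL-2 calls among the named regions, 16 and 6 held in every such fit.

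The labels number the replicates but name no animals. Correlations of the replicate differences between groups ran from -0.124 to 0.276. The highest was between control without and control with IL-2, and that between the cDKO groups was 0.0195. With 2 libraries per group, these values cannot decide whether the numbers pair the libraries. With the replicate block, genotype calls were 239 higher and 104 lower and IL-2 calls 28 and 18; within-library tests then allow 16 sign patterns and no p below 0.125. Having 2 libraries per group and unknown depth limits all rank comparisons: a region missing from an equal-number list is one not ranked high enough, not one shown to be closed.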
